A study of Mus musculus with 6 samples.

Results

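A set of 8 genes, called members here, was followed in single cell mRNA data from fetal mouse gonads: *Cpa1*, *Myl1*, *Tnnt2*, *Kctd14*, *Calb1*, *Gng13*, *Serpinb6a* and *Serpinb6b*. They were picked by symbol, with earlier results of the same data known, as candidate marks of feminized supporting cells in the dKO XY gonad, and they are 8 of the 26251 genes listed in any library. All 8 are listed in every library. The 3 groups were compared at E15.5, on a C57BL/6 background, with 2 libraries each: control XY (*Amh*+/+; *Inhbb*+/+), dKO XY (*Amh*-/-; *Inhbb*-/-, XY) and control XX (*Amh*+/+; *Inhbb*+/+). Each suspension was the gonad pair of 1 animal, frozen before use.

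Supporting cells are the somatic cells that surround the germ cells, and they become Sertoli cells in the testis and granulosa cells in the ovary. Sertoli cells of the fetal testis secrete AMH, the hormone that removes the female ducts, and activin B, a dimer of the protein encoded by *Inhbb*. Both belong to the TGF-beta family and signal through paired serine/threonine kinase receptors to SMAD proteins.

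After filtering, 39350 cells were kept, with 118475468 to 221675316 UMIs (unique molecules counted) per library and a median of 18415 to 27124 UMIs per cell. Barcodes with a high share of mitochondrial UMIs, which were removed, were 24.4% and 28.3% of those listed in dKO XY, and 2.22% to 9.35% in the 4 control libraries. The libraries shared 175 barcode sequences. In supporting cells *Amh* was at 2045 and 1919 UMIs per 1000000 UMIs (CPM) in control XY, 18.1 and 15.9 CPM in dKO XY, with 1.36 and 1.44 CPM in control XX. *Inhbb* was at 162 and 186 CPM in control XY, against 42.1 and 51.1 CPM in dKO XY, and whether the counted end of this transcript lies in the deleted part was not given in the sources used here.

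Supporting cells were 3 clusters of the clustering of all cells, which was made without the 8 members. The Sertoli-like cluster held 244 and 511 cells of control XY, 778 and 487 of dKO XY and none of control XX. The granulosa-like cluster held 2987 and 1177 cells of control XX, 78 and 26 of dKO XY and none of control XY. The third cluster was led by *Myl1*, *Cck* and *Pnmt* and held 398 and 426 cells of dKO XY, 13 and 18 of control XY and 9 and 6 of control XX. It scored highest for granulosa markers, but with only 3 of 9 granulosa markers, together with 3 of 6 supporting lineage markers, so it is given no cell type name here and is called the *Myl1*-led cluster. *Myl1*, *Tnnt2* and *Kctd14* are among its 10 leading genes, although none of the members was used for the clustering. *Ctrb1*, a pancreatic protease gene, is among them too. Supporting cells were also clustered again, without those strong in *Sycp3* or *Tcf21*. A subcluster led by *Tnnt2*, *Smoc2* and *Spon1* then held 381 and 399 cells of dKO XY. It held 11 and 23 of control XY and 20 and 10 of control XX. It was above the other supporting cells in 7 of 8 interstitial, 5 of 6 Leydig and 1 of 9 granulosa markers. No Sertoli or supporting lineage marker was above, and it got no name either.

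The members encode proteins of unlike kinds. *Cpa1* encodes a digestive carboxypeptidase best known from the exocrine pancreas, *Myl1* a myosin light chain of fast skeletal muscle and *Tnnt2* the cardiac troponin T of the thin filament. *Calb1* encodes the calcium buffer calbindin and *Gng13* a G protein gamma subunit known from taste and olfactory cells. *Serpinb6a* and *Serpinb6b* encode intracellular serine protease inhibitors of clade B, and *Kctd14* a protein with a BTB domain.

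On GRCm38 (GENCODE M21), *Cpa1* lies on chromosome 6 from 30639218 to 30645363, *Myl1* on chromosome 1 from 66924295 to 66945404 and *Tnnt2* on chromosome 1 from 135836354 to 135852260. *Kctd14* lies on chromosome 7 from 97451323 to 97459557, *Calb1* on chromosome 4 from 15881264 to 15908064 and *Gng13* on chromosome 17 from 25717171 to 25719406. *Serpinb6b* lies on chromosome 13 from 32965209 to 32979067 and *Serpinb6a* on the same chromosome from 33917918 to 34002794. *Tnnt2* starts 16.4 Mb from *Inhbb*, which was deleted in the dKO. Of the 125 genes tested within 20 Mb of *Inhbb*, 25.6% differed in supporting cells of dKO XY from those of control XY, against 16.8% of all genes tested (edgeR, adjusted p under 0.05), and the part of this region in the level of *Tnnt2* was not tested.

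RefSeq windows of 300 bases, from 250 bases before to 50 after a start site, were found for 6 of the 8 members, in 9 windows. The windows of *Cpa1*, *Myl1* and *Tnnt2* are shown, the 3 members furthest above both controls in supporting cells. Capitals mark matches, on either strand, to any of 8 motifs. These are the steroidogenic factor 1 motif AAGGTCA, the forkhead motif TGTTTAC, the GATA factor motif AGATAA, the SOX motif ACAAAG, the SMAD motif CAGACA, the TEAD motif CATTCC, the E-box CAGCTG and the TATA box motif TATAAA. Sequences are from GRCm38.p6 and are written 5′ to 3′ on the strand of the gene.
*Cpa1*, chr6:30638968-30639267, plus strand: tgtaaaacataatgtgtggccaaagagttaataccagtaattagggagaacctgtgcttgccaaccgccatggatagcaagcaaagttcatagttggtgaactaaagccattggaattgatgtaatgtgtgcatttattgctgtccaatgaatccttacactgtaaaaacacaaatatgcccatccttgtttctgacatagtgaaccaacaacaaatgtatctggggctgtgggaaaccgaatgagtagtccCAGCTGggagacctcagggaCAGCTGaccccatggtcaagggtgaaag
*Myl1*, chr1:66945007-66945306, minus strand: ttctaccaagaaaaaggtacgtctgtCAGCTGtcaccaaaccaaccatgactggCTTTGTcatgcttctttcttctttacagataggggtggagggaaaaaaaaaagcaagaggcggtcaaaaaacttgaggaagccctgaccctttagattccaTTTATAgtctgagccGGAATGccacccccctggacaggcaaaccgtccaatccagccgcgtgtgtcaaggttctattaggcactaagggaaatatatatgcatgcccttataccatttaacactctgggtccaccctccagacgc
*Tnnt2*, first of 2 start sites, chr1:135836084-135836383, plus strand: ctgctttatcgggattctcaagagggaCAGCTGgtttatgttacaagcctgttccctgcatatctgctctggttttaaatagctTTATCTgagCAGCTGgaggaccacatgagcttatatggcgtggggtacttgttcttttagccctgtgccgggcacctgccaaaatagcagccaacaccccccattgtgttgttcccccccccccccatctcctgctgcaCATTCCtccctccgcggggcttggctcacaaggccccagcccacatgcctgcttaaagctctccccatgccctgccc
The *Cpa1* window holds the E-box at 2 places. The *Myl1* window holds the E-box, the TEAD motif, the SOX motif and the TATA box, the last 3 on the opposite strand. The *Tnnt2* window holds the E-box at 2 places, the TEAD motif and, on the opposite strand, the GATA motif. Of all 32851 windows, 16.3% hold the E-box, 14.7% the TEAD motif, 18.7% the SOX motif, 13.6% the TATA box and 11.2% the GATA motif. No match was found in the windows for the steroidogenic factor 1, the forkhead or the SMAD motif, which says only that these letters are not in them.

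In supporting cells, 5 of the 8 members were higher in both dKO XY libraries than in all 4 control libraries, a pattern that 8.93% of the 15918 genes tested had. These 5 are *Cpa1*, *Myl1*, *Tnnt2*, *Kctd14* and *Serpinb6a*. Against control XY alone, all 8 were higher in both dKO XY libraries, as were 30.2% of the genes tested. Since the members were chosen on this contrast, the counts are a description and carry no test.

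*Cpa1* was at 81.9 and 160 CPM in dKO XY, 6.25 and 4.13 CPM in control XY, with 35.2 and 17.9 CPM in control XX. The mean of dKO XY was 121 ± 55.0 CPM (SD, n = 2), with both libraries above every control but far apart from each other. *Myl1* was at 16.9 and 23.2 CPM in dKO XY, 1.10 and 0.388 CPM in control XY, with 3.60 and 2.71 CPM in control XX. Its lower dKO XY library was 4.69 times its highest control library, the widest gap of the 8. *Tnnt2* was at 18.7 and 15.9 CPM in dKO XY, 4.78 and 2.39 CPM in control XY, with 0.257 and 0.134 CPM in control XX. It was thus high in dKO XY, low in control XY and near 0 in control XX, where 22 and 4 UMIs were counted.

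*Kctd14* was abundant in every supporting cell group. It was at 1784 and 2185 CPM in dKO XY, 798 and 811 CPM in control XY, with 1693 and 1538 CPM in control XX. Its lower dKO XY library exceeded the higher control XX library by a ratio of 1.05, which is smaller than the spread between the dKO XY libraries. *Serpinb6a* was at 1490 and 1682 CPM in dKO XY, 993 and 767 CPM in control XY, with 705 and 647 CPM in control XX. Its lower dKO XY library was 1.5 times the highest control library. *Serpinb6b* was at 120 and 167 CPM in dKO XY, 19.7 and 26.4 CPM in control XY, with 120 and 105 CPM in control XX. The lower dKO XY library and the higher control XX library of *Serpinb6b* were at a ratio of 1.00, so the groups touched.

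*Gng13* and *Calb1* did not exceed control XX. *Gng13* was at 111 and 121 CPM in dKO XY, 3.92 and 1.42 CPM in control XY, with 922 and 1066 CPM in control XX. Both dKO XY libraries were thus above control XY and well below control XX. *Calb1* was at 5.04 and 1.34 CPM in dKO XY and at 66.2 and 121 CPM in control XX. In control XY it had 1 and 0 UMIs, under the 3 UMIs used as a floor per library. The label of marks of dKO XY cells beyond both controls thus held for *Cpa1*, *Myl1*, *Tnnt2* and *Serpinb6a*, narrowly for *Kctd14*, and not for *Serpinb6b*, *Gng13* and *Calb1*.

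**Figure D1:**
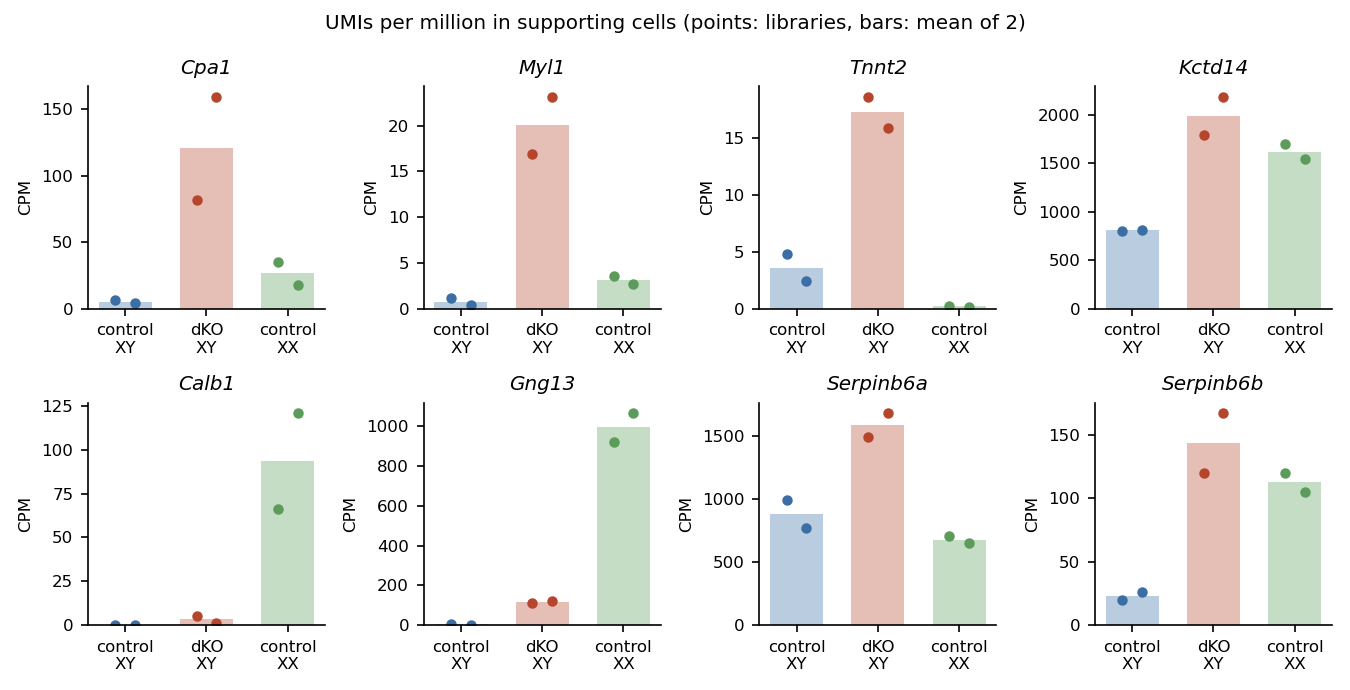
Levels (CPM, linear axis from 0) of the 8 members in supporting cells, with a point per library and bars at the mean of the 2 libraries in each group. Both dKO XY points of *Myl1* lie above all 4 control points, while those of *Gng13*, at 111 and 121 CPM, lie between control XY and control XX.

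The controls were also set against each other, as a description with no test, since the same control values took part in the choice of the members. Of all genes tested in supporting cells, 48.9% differed between the controls (edgeR, adjusted p under 0.05). *Gng13* had a log2 fold change of 8.65 ± 0.33 (SE), from 2.67 ± 1.77 CPM in control XY to 994 ± 102 CPM in control XX (SD, n = 2). *Calb1*, under its floor in control XY, was higher in control XX as well, and no fold is given for it. *Tnnt2* was lower in control XX, with a log2 fold change of -3.96 ± 0.41.

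*Serpinb6b* was higher in control XX by 2.23 ± 0.20 on the log2 scale. *Cpa1* was higher by 2.37 ± 0.43, *Myl1* by 2.26 ± 0.43 and *Kctd14* by 0.95 ± 0.15. *Serpinb6a* had a log2 fold change of -0.43 ± 0.16. In the order of the levels, 6 of the 8 members had their lowest supporting cell mean in control XY, and *Tnnt2* and *Serpinb6a* had theirs in control XX.

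Within the supporting cells the members were unevenly placed. In the *Myl1*-led cluster of dKO XY, *Cpa1* was at 228 and 335 CPM, against 9.33 and 33.9 CPM in the Sertoli-like cluster of the same libraries. *Myl1* was at 49.2 and 45.7 CPM in the former and 4.11 and 7.41 CPM in the latter. *Tnnt2* was at 61.8 and 35.8 CPM against 2.28 and 2.37 CPM. The 31 control XY cells of this cluster, 13 and 18 per library, had *Tnnt2* at 20.5 and 25.7 CPM from 10 UMIs in each, but no UMI of *Myl1* and *Cpa1* at 6.14 and 7.72 CPM. The control XX cells of this cluster, only 9 and 6 per library, had *Cpa1* at 341 ± 451 CPM and *Myl1* at 2.26 ± 3.19 CPM (SD, n = 2), but no UMI of *Tnnt2*. These are differences between clusters and carry no test.

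The other members separated in another way. In the granulosa-like cluster of dKO XY, with 78 and 26 cells, *Gng13* was at 844 and 787 CPM, close to the 923 and 1068 CPM of control XX cells of that cluster. In the *Myl1*-led cluster of dKO XY it was at 193 and 209 CPM and in the Sertoli-like cluster at 18.0 and 28.8 CPM. *Calb1* followed the same order, at 52.8 and 29.1 CPM in the granulosa-like, 6.68 and 1.34 CPM in the *Myl1*-led and 0.489 and 0.101 CPM in the Sertoli-like cluster of dKO XY. *Tnnt2* had no UMI in the granulosa-like cells of dKO XY. *Cpa1*, at 231 and 165 CPM there, was several times the 33.5 and 17.9 CPM of control XX granulosa-like cells.

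Within the Sertoli-like cluster 6 members were higher in both dKO XY libraries than in both of control XY, as were 30.7% of the 15918 genes. *Kctd14* was at 1467 and 1605 CPM against 825 and 812 CPM, *Serpinb6b* at 82.0 and 94.1 CPM against 17.3 and 24.6 CPM, and *Gng13* at 18.0 and 28.8 CPM against 4.04 and 1.46 CPM. *Serpinb6a* was at 987 and 1020 CPM against 845 and 751 CPM, a narrower gap. *Cpa1* was at 9.33 and 33.9 CPM against 6.26 and 4.04 CPM, and *Myl1* at 4.11 and 7.41 CPM against 1.17 and 0.40 CPM. In endothelial cells *Cpa1* was at 13.2 ± 1.70 CPM in dKO XY and 8.70 ± 1.31 CPM in control XY (SD, n = 2). In immune cells it was at 12.4 ± 3.04 and 6.46 ± 1.23 CPM. The part of free RNA from other cells in the *Cpa1* level of Sertoli-like cells was not tested. *Calb1*, from 12 and 2 UMIs against 1 and 0, overlapped, and *Tnnt2* did too, at 2.28 and 2.37 CPM in dKO XY and 3.78 and 1.79 CPM in control XY.

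Without the *Myl1*-led cluster, only 2 of the 8 members, not 5, were higher in both dKO XY libraries than in all controls, a pattern that 12% of the genes had. These 2 are *Myl1* and *Serpinb6a*. The log2 level of *Tnnt2* in dKO XY over control XY was then -0.25, and that of *Kctd14* over control XX -0.0499. Summed over the Sertoli marker list, the *Myl1*-led cluster of dKO XY had 1091 and 1008 CPM, against 11457 and 9412 CPM in the Sertoli-like cluster. Its interstitial marker sum was 794 and 704 CPM, above the 431 and 300 CPM of Sertoli-like dKO XY cells, and its Leydig marker sum was 323 and 389 CPM against 106 and 133 CPM. The striated muscle list, which holds neither *Myl1* nor *Tnnt2*, was at 23.4 and 15.7 CPM in it and at 26.6 and 23.6 CPM in Sertoli-like dKO XY cells.

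**Figure D2:**
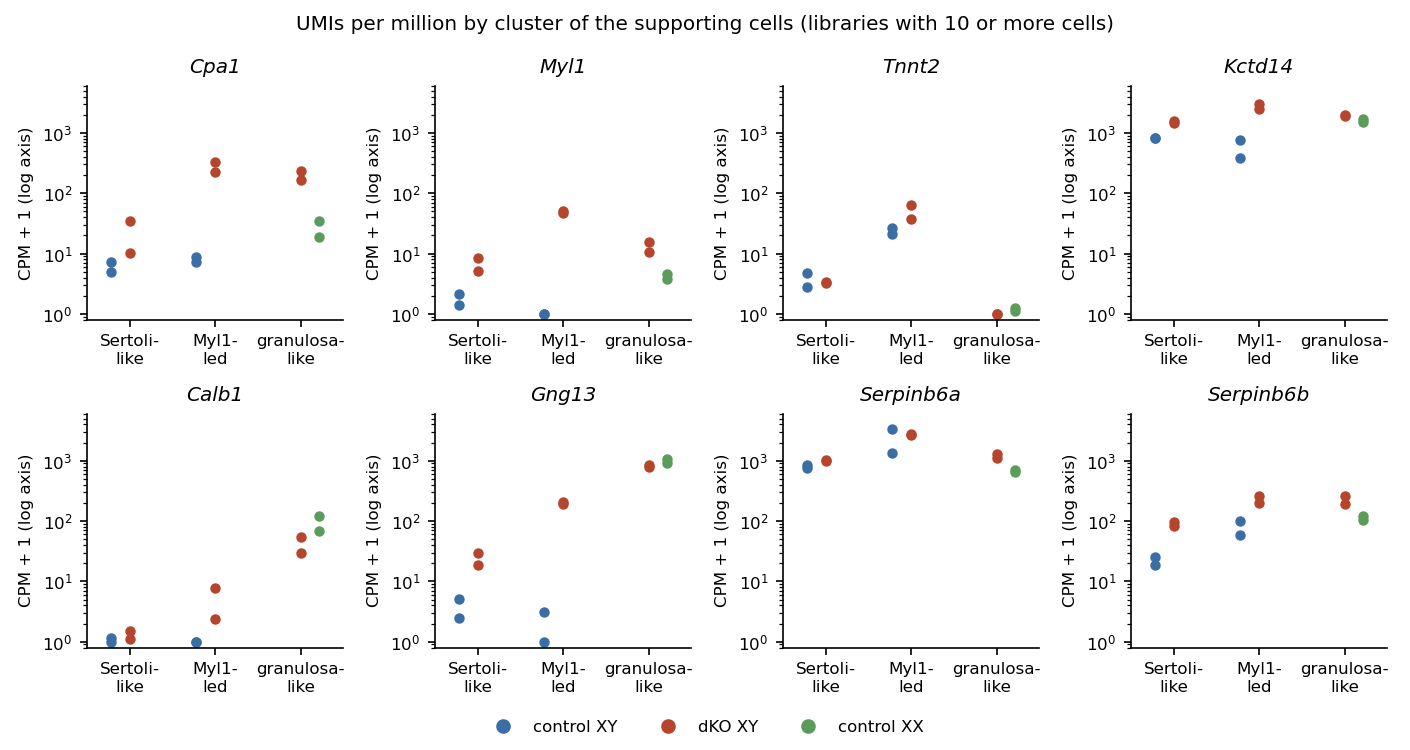
Levels as CPM plus 1 (log axis) of the 8 members in the Sertoli-like, *Myl1*-led and granulosa-like clusters of the supporting cells, with a point per library that has 10 or more cells, coloured by group. *Tnnt2* and *Myl1* peak in the middle cluster of dKO XY, and *Gng13* and *Calb1* in the granulosa-like cluster.

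The supporting cells without strong *Sycp3* or *Tcf21* were also ordered in each library and cut into 5 bins of equal size. The order was by the share of granulosa marker UMIs in all Sertoli and granulosa marker UMIs. In dKO XY the median share rose from 5.59% and 6.69% in the first bin to 81.2% and 80.8% in the last. *Tnnt2* was at 0.599 and 0.439 CPM in the first bin, 65.4 and 54.1 CPM in the fourth and 24.8 and 10.0 CPM in the last. *Myl1* was at 54.5 and 52.6 CPM in the fourth and 32.1 and 32.0 CPM in the last. Both were thus highest in the fourth bin in each library. Cells of the *Myl1*-led cluster were 78.0% and 97.2% of the fourth bin, and also 72.1% and 90.3% of the last. The interstitial marker sum was also highest in the fourth bin in each library, at 591 and 673 CPM. The Leydig marker sum was 406 and 381 CPM there, against 105 and 172 CPM in the first bin. From the third to the fourth bin the Sertoli marker sum fell from 9275 and 4424 CPM to 2093 and 1032 CPM. The granulosa marker sum changed less, from 1395 and 1360 CPM to 1552 and 1572 CPM. Cells low in both lists can thus lie in this bin, so it is not shown to be a place between the fates.

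*Serpinb6a* likewise was highest in the fourth bin of both dKO XY libraries, at 2723 and 2824 CPM against 1035 and 1001 CPM in the first. *Cpa1* was highest in the last bin, at 311 and 435 CPM, as were *Gng13*, at 477 and 418 CPM, and *Calb1*, at 24.4 and 5.60 CPM. In control XX, *Gng13* rose from 172 and 150 CPM in the first bin to 1662 and 2031 CPM in the last, while *Tnnt2* was at most 0.506 CPM in any bin. In control XY, where the median share of the last bin was 10.0% and 11.5%, *Tnnt2* was at 19.9 and 7.16 CPM in the last bin, and at most 0.853 CPM in the others. The interstitial marker sum of that bin was 483 and 1100 CPM, and its part in this level was not tested. No test is given, since the order was made from the same cells.

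**Figure D3:**
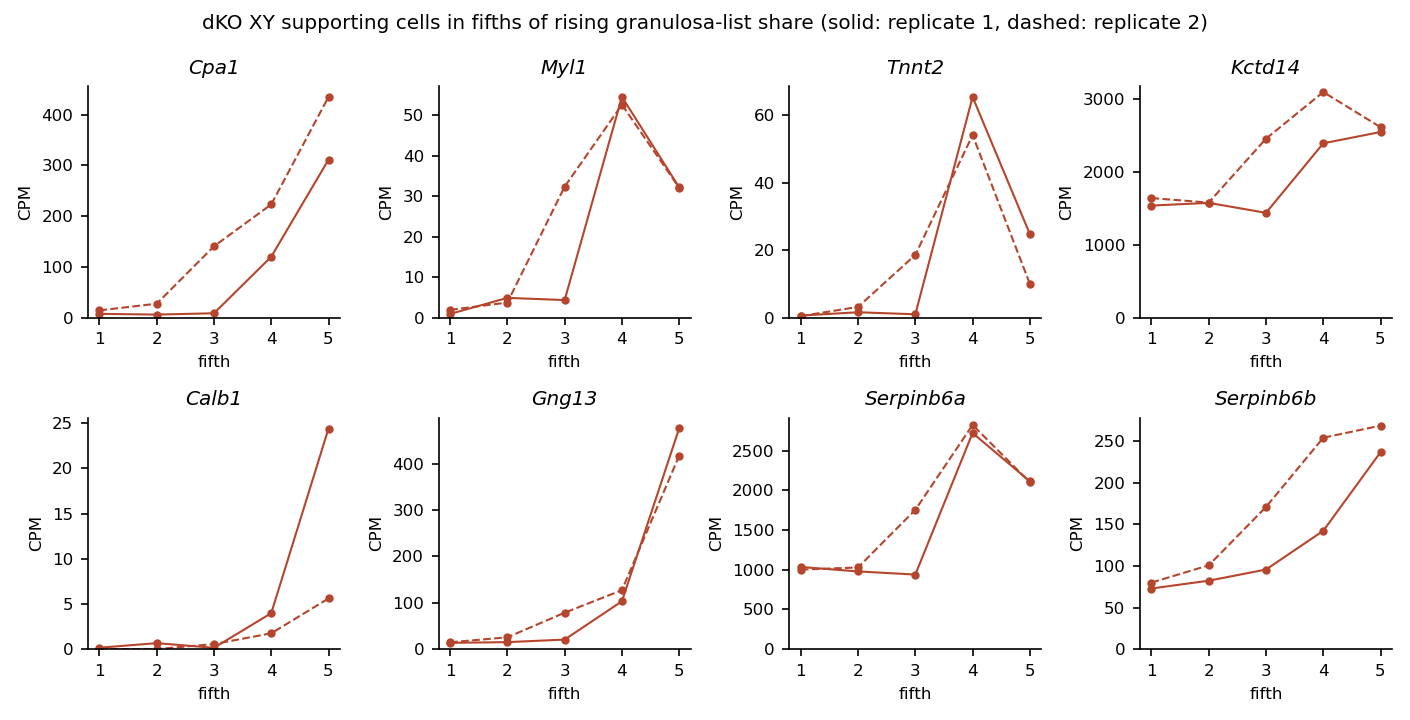
Levels (CPM, linear axes from 0) of the 8 members in dKO XY supporting cells cut into 5 bins of rising granulosa share, with a line per library. *Tnnt2* and *Myl1* peak in the fourth bin, at 65.4 and 54.5 CPM in replicate 1, and *Gng13* and *Calb1* in the last.

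The share of cells with a UMI was compared after each cell was thinned to 5000 UMIs, which left out no cell. In the *Myl1*-led cluster of dKO XY, *Cpa1* was detected in 27.6% and 41.5% of cells, *Myl1* in 15.1% and 14.3% and *Tnnt2* in 13.6% and 11%. Before thinning these shares were 50% and 64.8%, 28.9% and 37.1%, and 28.4% and 26.3%. In immune cells of the same libraries the thinned shares were 3.26% and 3.92% for *Cpa1*, and 0% and 0.980% for both *Myl1* and *Tnnt2*. For 0 of 184 cells an exact binomial interval reaches 1.98%. Median depths were 22506 and 26096 UMIs in the *Myl1*-led cluster and 23893 and 24004 UMIs in immune cells.

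Without thinning, 70.9% and 79.3% of dKO XY cells of the *Myl1*-led cluster had a UMI of at least 1 of *Cpa1*, *Myl1* and *Tnnt2*, and 5.53% and 11% had all 3. In the Sertoli-like cluster of dKO XY these shares were 14.7% and 25.7% for at least 1 and 0.257% and 0.616% for all 3. These shares cover counting error only and rest on cells of 1 animal per library.

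Outside the supporting cells, differences of dKO XY from control XY were tested in 6 cell types. These cells come from the same libraries in which the members were picked, so the tests are not independent of that choice. Between 5 and 8 members had enough UMIs for the fit in each. In all, 18 pairs of a member and a cell type were higher in dKO XY and none lower (edgeR, adjusted p under 0.05). With DESeq2 no pair was called lower either. Of the 18, *Myl1* in Leydig cells and *Cpa1* in coelomic epithelial cells had 2 to 6 UMIs in each control XY library, so these 2 are descriptions only. In interstitial cells 6 members were higher, and 4.05% of all genes tested there were higher. The XY groups differed in the make-up of their interstitial cells, as given below, and its part in these calls was not tested. In Leydig cells 4 were higher besides *Myl1*, where 5.27% of all genes were, and in coelomic epithelial cells 3 besides *Cpa1*, where 3.65% were. *Kctd14* and *Serpinb6a* were higher in endothelial cells and *Kctd14* in pericytes, where 0.224% and 0.15% of genes were higher. Both endothelial calls were lost without control XY replicate 1 (adjusted p = 0.225 for *Kctd14* and 0.236 for *Serpinb6a*), without control XY replicate 2 (0.0852 and 0.0858) and without the 8% of cells with the highest doublet scores, where the log2 fold change of *Kctd14* was 1.19 rather than 2.43. That of *Kctd14* was also lost with DESeq2 (adjusted p = 0.253) and without dKO XY replicate 2 (edgeR adjusted p = 0.0855). In immune cells no member passed, and 0.00885% of genes were higher there, which does not show that the members did not differ. *Kctd14* was at 21.2 and 23.4 CPM in immune cells of control XY, against 91.3 and 131 CPM in dKO XY (log2 fold change 2.27 ± 0.28, edgeR adjusted p = 0.0609). *Serpinb6a* had a log2 fold change of 1.14 ± 0.23 there (adjusted p = 0.21), and *Gng13* had 0 and 1 UMIs in control XY, against 83 and 35 in dKO XY.

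*Serpinb6b* was at 63.0 and 72.1 CPM in Leydig cells of control XY and at 175 and 192 CPM in those of dKO XY. The log2 fold change was 1.41 ± 0.10 (SE, edgeR adjusted p = 0.00115), with both dKO XY libraries above both controls. These Leydig levels were above the 120 and 167 CPM of supporting cells in the same libraries. *Serpinb6a* was at 756 and 714 CPM in control XY, against 1179 and 1132 CPM in dKO XY Leydig cells (log2 fold change 0.63 ± 0.09, adjusted p = 0.00674). In interstitial cells *Serpinb6a* was at 300 and 293 CPM in control XY, against 569 and 651 CPM in dKO XY (1.04 ± 0.10, adjusted p = 0.00267), and *Serpinb6b* rose by 1.91 ± 0.21 (adjusted p = 0.00392). The pair of protease inhibitor genes thus rose in Leydig cells and in interstitial cells. In pericytes neither passed, with log2 fold changes of 0.32 ± 0.15 for *Serpinb6a* (edgeR adjusted p = 0.835) and 0.07 ± 0.24 for *Serpinb6b*. Of stretches of 50 bases in *Serpinb6a* transcripts, 0.283% also occur in *Serpinb6b*, and how reads of these stretches were counted was not given in the sources used here.

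*Kctd14* was higher in dKO XY in 5 of the 6 cell types. In interstitial cells it was at 13.4 and 26.6 CPM in control XY, then 112 and 196 CPM in dKO XY, with 249 and 137 CPM in control XX. The log2 fold change of dKO XY against control XY was 2.94 ± 0.40 (edgeR adjusted p = 0.00676). In Leydig cells it was 2.10 ± 0.18 (adjusted p = 0.00173) and in pericytes 2.11 ± 0.27 (adjusted p = 0.00412). In dKO XY the levels of *Kctd14* outside the supporting cells and the coelomic epithelium were 2.53% to 14.8% of the supporting cell level, and supporting cells made up 15.4% and 16.5% of dKO XY cells against 3.77% and 6.17% of control XY cells. The part of free RNA from supporting cells in these differences was not tested. The Sertoli marker sum in interstitial cells was 135 and 250 CPM in control XY and 198 and 220 CPM in dKO XY and overlapped between the groups. In dKO XY this sum was far lower in the *Myl1*-led than in the Sertoli-like cluster, so it does not trace free RNA of the *Myl1*-led cluster.

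*Myl1* in interstitial cells was at 0.137 and 0.0996 CPM in control XY, against 0.955 and 2.24 CPM in dKO XY (log2 fold change 3.72 ± 0.47, edgeR adjusted p = 0.00564). Its dKO XY levels there were 5.64% and 9.69% of the supporting cell level, and those of *Gng13* were 8.97% and 8.13%. The part of free RNA from supporting cells in these 2 differences was not tested. In Leydig cells *Myl1* had 2 and 6 UMIs in control XY, against 38 and 41 in dKO XY, and entered the fit only through dKO XY, so no p is given. *Tnnt2* in interstitial cells rose from 3.33 and 4.08 CPM to 7.63 and 9.10 CPM (1.17 ± 0.24, adjusted p = 0.0261). It lost its call with the replicate number as a block (adjusted p = 0.0603). It also lost it without control XY replicate 1 (adjusted p = 0.151), control XY replicate 2 (0.0624) or dKO XY replicate 2 (0.0861).

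*Cpa1* was at least as high in Leydig cells as in the supporting cells of the same dKO XY libraries, at 188 and 146 CPM in control XY and 164 and 166 CPM in dKO XY. The log2 fold change was -0.04 ± 0.12 (edgeR adjusted p = 0.883). Pericytes, contractile cells that wrap small vessels, had *Cpa1* at 140 and 104 CPM in control XY, 117 and 131 CPM in dKO XY, with 50.8 and 47.5 CPM in control XX. Of all *Cpa1* UMIs, supporting cells held 20.9% and 28.0% in dKO XY, only 0.416% and 0.539% in control XY, but 90.2% and 66.4% in control XX. Most *Cpa1* UMIs of the dKO XY gonad thus came from other cells. Counted over every gene, supporting cells of dKO XY held 16.6% and 18.2% of UMIs, less than their share of *Cpa1*. For control XX this share of UMIs was 56.8% and 25.2%, also less than that of *Cpa1*. For control XY it was 4.46% and 7.34%, more than that of *Cpa1*. The part of cell make-up in the differences of *Cpa1* shares between groups was not tested.

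In coelomic epithelial cells, the surface layer of the gonad, *Gng13* was at 6.85 and 8.24 CPM in control XY, then 281 and 161 CPM in dKO XY, with 694 and 440 CPM in control XX. The dKO XY cells differed from control XY by 4.88 ± 0.41 on the log2 scale (edgeR adjusted p = 0.000321). *Kctd14* rose from 5.14 and 22.8 CPM to 447 and 555 CPM (5.09 ± 0.58, adjusted p = 0.00116), and *Serpinb6b* from 9.42 and 13.9 CPM to 94.0 and 96.5 CPM (3.01 ± 0.25, adjusted p = 0.000321). *Cpa1* had 4 and 2 UMIs in control XY, against 154 and 389 in dKO XY, and no p is given for it. Its call was lost without control XY replicate 2 or dKO XY replicate 2. These cells numbered 30 and 42 in control XY and 190 and 299 in dKO XY. Their granulosa marker sum was 386 and 393 CPM in control XY and 953 and 827 CPM in dKO XY, and its part in these results was not tested.

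**Figure D4:**
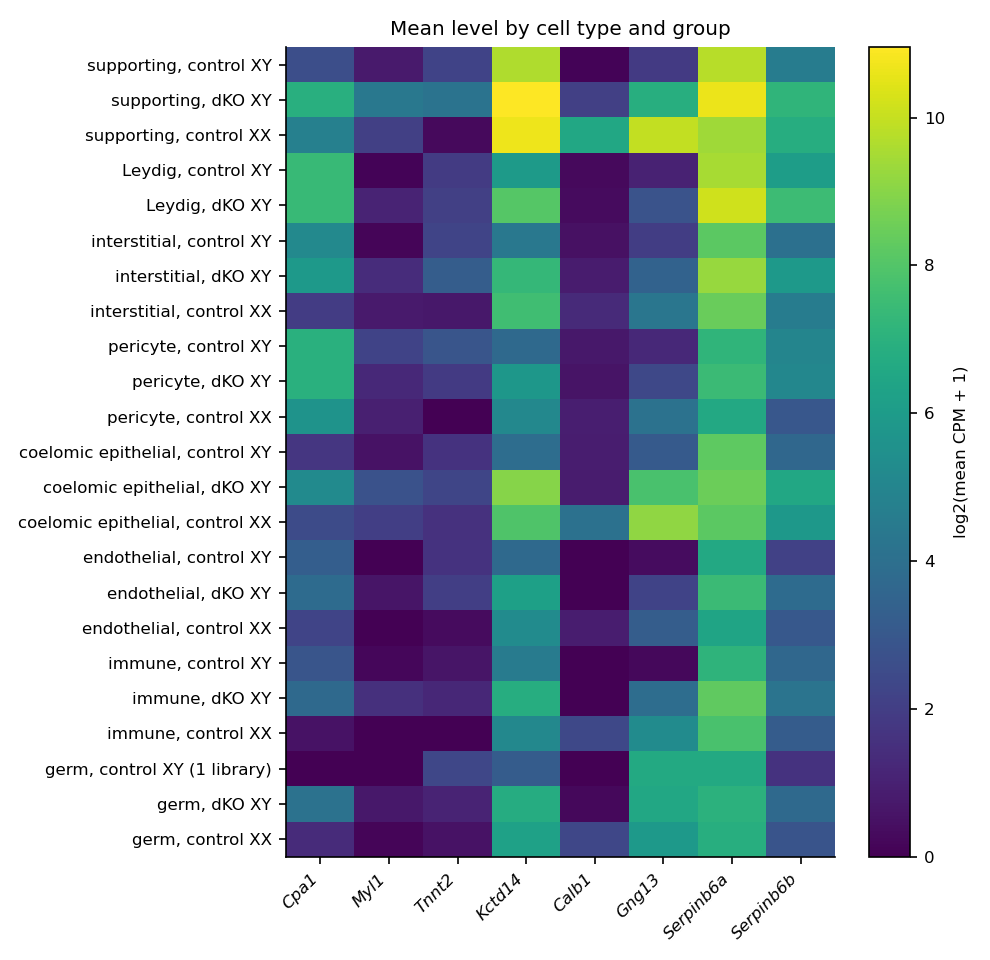
Mean level of the 8 members, as log2 of CPM plus 1, by cell type and group, over libraries with 10 or more cells of the type. *Calb1* is highest in control XX supporting cells, with a mean of 93.6 CPM, while *Cpa1* is also high in Leydig cells and pericytes of the XY groups.

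The controls differed in these members outside the supporting cells too. In interstitial cells 4 members were higher and 2 lower in control XX than in control XY (edgeR, adjusted p under 0.05), where 24.9% of all genes differed. The groups lay in different clusters of the interstitial cells. Of 3 such clusters, 1 led by *Il33* and *Gdf10* held 1541 of 1548 and 2954 of 2958 interstitial cells of control XX, but 265 of 5233 and 235 of 6253 of control XY. It held 656 of 4718 and 321 of 2865 of dKO XY. *Cpa1* fell by 3.62 on the log2 scale there (SE 0.41, adjusted p = 0.000453), while its supporting cell level was higher in control XX. *Tnnt2* fell by 2.63 (SE 0.30, adjusted p = 0.000504), and *Gng13* rose by 2.69 ± 0.18 (adjusted p = 2.8e-05). In coelomic epithelial cells, where 5.1% of genes differed, *Gng13*, *Kctd14*, *Calb1* and *Serpinb6b* were higher in control XX. *Calb1* had 2 and 0 UMIs in control XY there, against 167 and 63 in control XX, and entered the fit only through control XX, so no p is given. In pericytes, where 7.66% differed, *Cpa1* and *Serpinb6b* were lower and *Kctd14* higher. *Gng13* was at 16.8 ± 10.4 CPM in pericytes of control XX and 1.43 ± 0.19 CPM in those of control XY (SD, n = 2). Its level in control XY was so low that this is a description only. *Tnnt2* had no UMI in pericytes of control XX, against a mean of 6.34 CPM in control XY. It entered the fit only through the XY groups, so this is a description only.

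In germ cells *Gng13* was at 102 and 85.7 CPM in dKO XY and 54.6 and 65.6 CPM in control XX, and at 98.9 and 187 CPM in the 15 and 7 germ cells of control XY, too few for a test. *Calb1* did not pass between dKO XY and control XY in interstitial cells. In coelomic epithelial cells its means were 0.857 CPM in control XY and 0.764 CPM in dKO XY. It entered the fit there only through control XX, so no test between the XY groups is given.

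**Figure D5:**
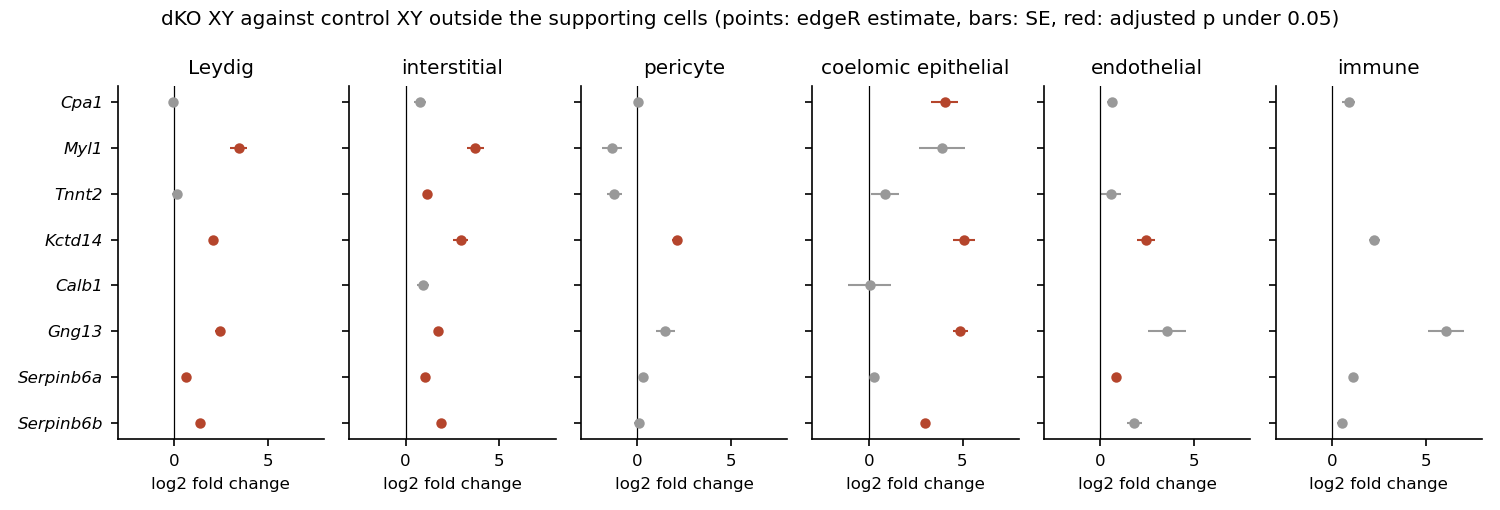
Log2 fold change of dKO XY against control XY (x axis) for the members in 6 cell types other than supporting cells, with the standard error as bars and calls at an adjusted p under 0.05 in red. *Kctd14* lies to the right of 0 in all 6 types and is called in 5, while *Cpa1* is at -0.04 in Leydig cells.

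Across the 48 sums of a library and a cell type with 10 or more cells, which share libraries and depth, *Serpinb6a* and *Serpinb6b* were the members most alike (Pearson r of log2 CPM 0.77), followed by *Kctd14* and *Serpinb6b* (0.71) and *Calb1* and *Gng13* (0.68). *Cpa1* and *Gng13* were at -0.21. Among all genes, those most like *Cpa1* were *Gpr20*, *Rerg* and *Trib2* (0.82 to 0.83), and those most like *Tnnt2* were *Grin2a*, *Smoc2* and *Cst9* (0.70 to 0.71). *Zc2hc1c*, *Mmp23* and *Kif6* were most like *Myl1* (0.72 to 0.74), *Tgfbr3l*, *Tle6* and *Dmrta1* most like *Kctd14* (0.88 to 0.89), and *Dpp10*, *Ces1h* and *AC121838.2* most like *Calb1* (0.73 to 0.76). *Sp5*, *Rec8* and *Tmem171* were most like *Gng13* (0.82 to 0.88), *Zfp395*, *Mgst1* and *Eps8* most like *Serpinb6a* (0.83 to 0.86), and *Bmyc*, *RP23-410L16.1* and *Aldh1a3* most like *Serpinb6b* (0.83 to 0.85).

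The families of the members were then read in supporting cells of dKO XY against control XY. These lists were chosen with earlier results of the same data known, so their p-values are not independent of that choice. Of 110 relatives in 7 lists, 75 were tested, 16 were higher and 4 lower (edgeR, adjusted p under 0.05), or 26.7%, beside 16.8% of all genes tested, of which 9.89% were higher. Among 7 carboxypeptidases tested, 3 were higher and none lower. *Cpz* rose by 1.66 ± 0.41 (edgeR adjusted p = 0.0203).

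Of 8 myosin light chains tested, *Myl9*, the light chain of smooth muscle, alone was called, with a rise of 1.56 ± 0.18 (edgeR adjusted p = 0.000311). It was at 51.6 and 59.1 CPM in control XY, then 176 and 151 CPM in dKO XY, with 598 and 858 CPM in control XX. Of 9 troponins and tropomyosins, *Tnnt1*, the slow skeletal troponin T, rose by 1.67 ± 0.15 (adjusted p = 8.9e-05) and *Tnni3*, the cardiac troponin I, fell by 0.94 on the log2 scale (SE 0.15, adjusted p = 0.00207). *Tnni3* was at 389 and 319 CPM in control XY, against 204 and 164 CPM in dKO XY. Troponin genes thus moved in both directions, and the other 7 of that list did not pass.

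Of 19 KCTD genes tested, 2 were higher and 1 lower. *Kctd8* rose by 2.07 ± 0.37 (edgeR adjusted p = 0.00393), *Kctd12* rose by 1.13 ± 0.23 (adjusted p = 0.00765) and *Kctd15* fell by 0.70 (SE 0.20, adjusted p = 0.0429). Of 14 calcium buffer and sensor genes, 4 were higher and 1 lower. *Vsnl1* rose by 1.64 ± 0.22 (adjusted p = 0.000835) and *S100a1* by 1.03 ± 0.14 (adjusted p = 0.000973), while *Ncald* fell by 1.52 (SE 0.18, adjusted p = 0.000448).

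Of 14 G protein beta and gamma subunits, *Gngt2* rose by 2.64 ± 0.53 (edgeR adjusted p = 0.00762), *Gnb3* rose by 2.18 ± 0.42 (adjusted p = 0.00597) and *Gnb5* fell by 1.63 (SE 0.15, adjusted p = 9.76e-05). *Gnb3* was at 6.67 and 5.04 CPM in dKO XY, 2.08 and 0.775 CPM in control XY, with 0.889 and 1.31 CPM in control XX. Of 20 clade B serpins 4 were tested and 3 were higher. *Serpinb1b* rose by 2.81 ± 0.57 (adjusted p = 0.00836), to 3.08 and 4.61 CPM, above all 4 control libraries, and *Serpinb1a* by 0.92 ± 0.15 (adjusted p = 0.00213).

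Genes within 100 kb of a member were counted as well, beside 9.89% of all genes tested that were higher and 16.8% that differed in either direction. Of 9 tested neighbours of *Gng13*, 2 rose in dKO XY and none fell. Near *Cpa1* 2 of 3 tested were higher, near *Kctd14* 1 of 5, near *Calb1* 1 of 3 and near *Myl1* 1 of 2, with none lower. Near *Tnnt2* 1 of 3 was lower and none higher. Of the 2 tested near *Serpinb6b*, *Serpinb9* and *Serpinb1b*, both were higher, and of the 4 near *Serpinb6a* none passed by edgeR. Near *Myl1*, *Acadl*, an enzyme of fatty acid oxidation, rose by 1.16 ± 0.12 (adjusted p = 0.000217), and near *Tnnt2*, *Phlda3* fell by 0.98 (SE 0.19, adjusted p = 0.00681). *Serpinb6a* overlaps *Ripk1*, *Nqo2* and an antisense RNA gene on the opposite strand and *Gng13* overlaps *Chtf18*. Whether counting used strand was not given in the sources used here. *Nqo2* had a log2 fold change of 0.47 ± 0.15 (adjusted p = 0.0561), *Ripk1* 0.14 ± 0.18 (adjusted p = 0.681) and *Chtf18* -0.47 ± 0.18 (adjusted p = 0.106), and the part of these genes in the values of *Serpinb6a* and *Gng13* was not tested.

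Beside the members, 7 of 9 granulosa markers rose in supporting cells of dKO XY over control XY and none fell, with a median log2 fold change of 3.11 against 0.02 over all genes tested. Of all genes tested, 9.89% were higher and 16.8% differed in either direction. The supporting clusters were named with this list and the Sertoli list, so the values of both lists are a description and carry no test. *Rspo1*, which drives ovarian WNT signalling, was at 4.90 and 3.17 CPM in control XY, then 126 and 157 CPM in dKO XY, with 263 and 231 CPM in control XX. Its log2 fold change of dKO XY over control XY was 5.20 ± 0.23 (SE), and that of *Irx3* was 4.97 ± 0.22. Of 11 Sertoli markers 5 were lower and none higher. *Defb19* fell by 1.37 (SE 0.17) and *Mro* by 0.83 (SE 0.14) on the log2 scale. *Foxl2*, at 29.6 and 59.2 CPM in dKO XY and 213 and 193 CPM in control XX, lay between the controls as *Gng13* did. Of 6 germ cell markers 5 were higher in dKO XY supporting cells, and their sum was 214 and 273 CPM in dKO XY against 93.3 and 26.5 CPM in control XY. Germ cells numbered 414 and 279 in dKO XY, against 15 and 7 in control XY, and the part of germ cell RNA in these results was not tested.

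Tissues known for the proteins of *Myl1*, *Tnnt2* and *Cpa1* had lists of their own. Of 6 other striated muscle genes tested, *Ckm*, the muscle creatine kinase, alone was called, at 3.68 and 4.85 CPM in control XY, against 11.5 and 9.90 CPM in dKO XY (1.31 ± 0.22, edgeR adjusted p = 0.00295). Of 3 other exocrine pancreas genes tested, *Pnlip*, the pancreatic lipase, and *Cela1*, an elastase, were higher and none lower. *Pnlip* was at 0.12 and 0.26 CPM in control XY, against 3.30 and 3.49 CPM in dKO XY. Of 8 interstitial markers 6 were lower in dKO XY, and of 6 coelomic epithelial markers tested 4 were higher. Of 7 mesonephric tubule and rete markers, *Emx2*, *Lhx1* and *Cdh1* were higher and none lower, with a median log2 fold change of 1.31. Their sum was 91.1 and 98.6 CPM in dKO XY supporting cells, against 47.1 and 41.7 CPM in control XY, and its part in the members' values was not tested. *Emx2*, which the gonad also expresses, made up most of that sum in dKO XY, at 55.3 and 53.9 CPM. These lists and genes were named with earlier results known, so the calls here are not independent of that choice.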

How the data were processed

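Single cell 3' mRNA libraries were made from 6 gonad suspensions at E15.5. The authors aligned the reads with Cell Ranger to mm10, removed swapped barcodes, and deposited UMI counts without normalization. Whether counting used strand was not given in the sources used here.

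Here barcodes with 2500 to 9000 genes, under 25% mitochondrial and under 20% *Hbb* UMIs were kept, 39350 of 68064. Cells were clustered in Seurat 5.3.0 (R 4.3.3) on 3000 variable genes less 60, the members, their relatives and genes the study names. Clusters were named from marker lists. Doublets were scored in Scanpy 1.11.5 and kept. For each cell type, the UMIs of every library with 10 or more such cells were added up and tested with edgeR 4.0.16 (quasi-likelihood, TMM, filterByExpr, group as the only factor, all groups sharing the spread), with Benjamini-Hochberg adjustment over all genes tested. CPM is UMIs per 1000000 UMIs of the summed cells. DESeq2 1.42.0 and other settings were alternatives. The scripts were tested on simulated data.

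The labels number 2 libraries per group without stating that they are separate litters, so p-values measure the spread between these libraries. The members and the lists were chosen with earlier results of these data known. Values of supporting cells therefore carry no test for the members, and tests in other cell types of the same libraries are not independent of that choice. The p-values of relatives, neighbours and tissue lists in supporting cells are not independent of it either. The text names the 8 members, the called genes with the 2 largest rises and the 2 largest falls of each list of relatives and of the Sertoli and granulosa lists, and for each member the 3 genes most correlated with it; neighbours and *Foxl2* were named after their values were seen. The values of 1 gene that this rule names are not reported here. Intervals and floors, set at 3 UMIs per library, cover counting error only.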

Additional observations from a re-analysis of the deposited data

Results flagged for a closer look

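The effect of dKO XY against control XY on each member was compared between interstitial cells and 5 other cell types, a comparison added after the data were seen. Each difference was tested in edgeR with the library as a block and adjusted over all genes. Of 40 differences 16 passed, and values are log2 effects in the named type minus interstitial cells.

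In coelomic epithelial cells the effect was larger by 3.06 for *Gng13* (adjusted p = 0.000187), 2.25 for *Kctd14* (adjusted p = 0.00170) and 1.10 for *Serpinb6b* (adjusted p = 0.0319), beside 7.28% of all genes that differed. For *Serpinb6a* the difference was -0.76 (adjusted p = 0.0118). For *Cpa1* it was 3.21, given with no p, since it rests on 4 and 2 UMIs in coelomic epithelial cells of control XY. In pericytes, where 2.37% of genes differed, it was -4.97 for *Myl1*, which had 15 and 26 UMIs in pericytes of control XY and 15 and 3 in dKO XY (adjusted p = 5.75e-05). It was -2.39 for *Tnnt2* (adjusted p = 0.000272), -1.82 for *Serpinb6b* (adjusted p = 7.2e-06), -0.74 for *Serpinb6a* (adjusted p = 0.00169) and -0.71 for *Cpa1* (adjusted p = 0.0216).

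In Leydig cells, where 11.4% of genes differed, it was -1.03 for *Tnnt2* (adjusted p = 0.0429), -0.88 for *Kctd14* (adjusted p = 0.0192), -0.78 for *Cpa1* (adjusted p = 0.0338), -0.52 for *Serpinb6b* (adjusted p = 0.00721) and -0.43 for *Serpinb6a* (adjusted p = 0.0132). In immune cells it was -1.37 for *Serpinb6b* (adjusted p = 0.0307), where 0.579% of genes differed. No difference of a member passed in endothelial cells, where 2.8% of genes differed.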

How the results depend on the processing

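Between the controls, whose supporting cell values took part in the choice of members and so carry no test, the number of members past the threshold of the fit as lower in control XX was 2 rather than 1 with DESeq2, with no filter on low counts and without the 8% of cells with the highest doublet scores, and 1 to 2 when 1 library was left out, with *Serpinb6a* as the second. Pairs of a member and another cell type called higher in dKO XY numbered 15 to 22 when 1 library was left out, 21 with DESeq2, 26 with no filter and 17 with the replicate number as a block, against 18, and none was called lower in any of these fits. The replicate numbers mark nothing shared in the labels, the deviations of same-numbered libraries correlated at 0.0019, -0.101 and -0.183, and under the block *Tnnt2* in interstitial cells lost its call (adjusted p = 0.0603).

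Relatives called lower numbered 10 rather than 4 with no filter, and 3 to 10 when 1 library was left out, and those called higher 10 to 16 rather than 16, with 10 without control XY replicate 2. Sertoli markers called numbered 8 with no filter and 3 in cells under 10% mitochondrial UMIs, rather than 5, and 2 to 6 when 1 library was left out, with 2 without dKO XY replicate 2. Leaving out the *Myl1*-led cluster, an alternative chosen after seeing the data, gave 2 members above all controls rather than 5, 10 relatives called higher, 7 called lower and 3 Sertoli markers. It also turned the log2 level of dKO XY over control XY to -0.25 for *Tnnt2*, and over control XX to -0.0499 for *Kctd14* and -0.23 for *Serpinb6b*.

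Other reversals were of differences that passed in no fit named here. Without the 8% of cells the log2 fold change was -0.38 for *Calb1* in coelomic epithelial cells, -0.0428 for *Cpa1* and -0.0044 for *Serpinb6b* in pericytes and -0.19 for *Tnnt2* in endothelial cells. In cells under 10% mitochondrial UMIs it was -0.0211 for *Serpinb6b* in pericytes and -0.43 for *Tnnt2* in Leydig cells. With 1 library left out it ran from -1.15 to 5.19 for *Calb1* in coelomic epithelial cells, from -0.22 to 0.15 for *Cpa1* in Leydig cells and from -0.19 to 0.25 for *Cpa1* in pericytes. It ran from -0.25 to 0.48 for *Serpinb6b* in pericytes and from -0.22 to 0.49 for *Tnnt2* in Leydig cells. The cause of these shifts was not tested. With 2 libraries a group, 1 animal each, a lone library left in a group is assumed to vary like the other groups.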
